A study of Mus musculus with 4 samples.

Results

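Mouse chromosome 11 held more called binding sites of the erythroid factors Ldb1, Tal1 and Gata1 than any other chromosome. The sites described here are every site that the authors' lists place on chromosome 11, and they were selected by chromosome from lists that had themselves been called on the tag counts described below. They numbered 1392 of 16252. Ldb1 had 412 of its 5170 sites there, Tal1 had 475 of 5391, and 505 of the 5691 Gata1 sites lay on it. Because chromosome 11 was chosen with its site count already known, its density is a description and was not tested. The aligned tags on the chromosome numbered 348074 with the Ldb1 antibody, 325849 with Tal1, 436386 with Gata1 and 370058 with the IgG control.

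The material was total bone marrow of mice, freshly isolated and cross-linked with formaldehyde, and the labels give no strain, age, genotype or number of animals. Chromatin immunoprecipitation with sequencing was done once with each of 3 antibodies (Ldb1, sc-11198; Scl/Tal1, sc-12984; Gata1, ab11852) and once with control IgG, which measures the background of the procedure. With 1 library per antibody there is no replicate, so the intervals below are exact 95% intervals that cover counting error in single libraries only. Total marrow mixes erythroid cells with megakaryocytes, mast cells, granulocytes and lymphocytes, and the cells that carried each site cannot be told apart.

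As background, Gata1 is a zinc finger protein that recognises GATA motifs and is needed for red cell and platelet formation. Tal1 is a basic helix-loop-helix protein that binds E-boxes with an E-protein partner. Ldb1 does not bind DNA itself and bridges Tal1 and Gata1 through Lmo2, and it can also join distant regulatory elements, as at the globin genes. Mouse chromosome 11 carries the alpha-globin genes Hba-a1 and Hba-a2, the gene for the red cell anion exchanger (Slc4a1), the megakaryocyte integrin gene Itga2b, the lymphoid regulator Ikzf1, the signalling genes Stat5a and Stat5b, and the neutrophil gene Mpo. The RefSeq table used for names (GRCm38.p6) puts all of these on chromosome 11. The files use the older assembly mm8, for which no annotation or sequence was used here, so regions are given by mm8 position, without gene, exon or intron and without their bases.

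The density of sites on chromosome 11 was high for all 3 proteins. Over the 118.8 Mb between its first and last tag there were 3.47 Ldb1 sites per Mb (3.14 to 3.82), 4.0 Tal1 sites (3.65 to 4.38) and 4.25 Gata1 sites (3.89 to 4.64). The other 18 autosomes together had 2.04, 2.12 and 2.24 per Mb. Chromosome 11 thus stood at 1.70 times the rest in Ldb1 sites (1.53 to 1.88), 1.89 times in Tal1 sites (1.72 to 2.08) and 1.90 times in Gata1 sites (1.73 to 2.08). Tal1 and Gata1 were denser there than on any of the 18 others. Chromosome 19 came next in both, with 3.42 Tal1 sites (2.96 to 3.93) and 3.97 Gata1 sites per Mb (3.47 to 4.51). These intervals overlapped those of chromosome 11. Ldb1 came second, after chromosome 19 with 3.52 per Mb, a gap well within the counting interval. Among sites at or above the median tag number of each list (15, 13 and 16 tags), chromosome 11 ranked 1 for every antibody, with 1.80, 1.99 and 2.30 sites per Mb against 1.03, 1.07 and 1.17 elsewhere.

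**Figure D1:**
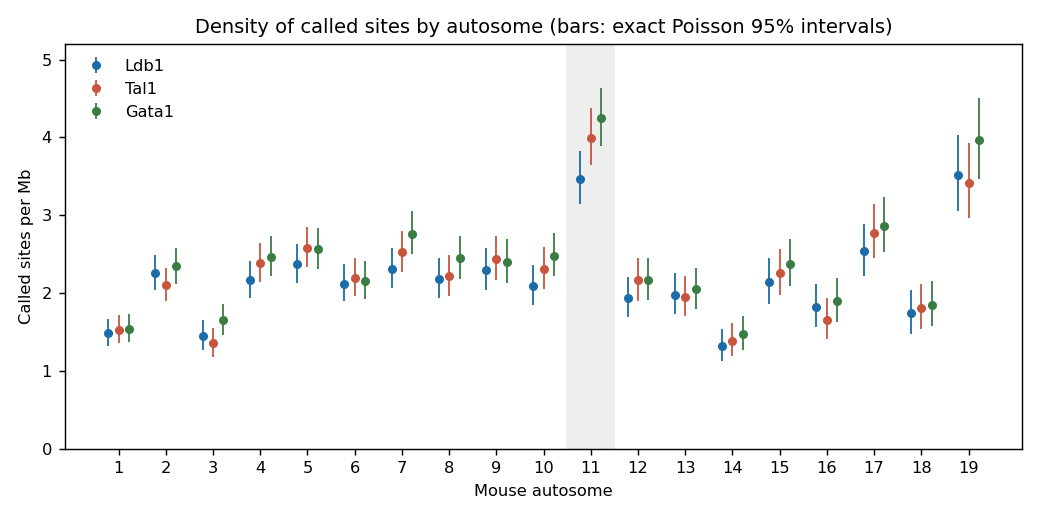
Called sites per Mb (y axis) on each of the 19 mouse autosomes (x axis) for Ldb1, Tal1 and Gata1, with exact Poisson 95% intervals. Chromosome 11 (shaded) had 3.47, 4.0 and 4.25 sites per Mb, and only chromosome 19 came near it, or above it for Ldb1 (3.52).

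To count shared sites once, any run of sites, from whichever list, with steps of at most 200 bp between centres was joined into 1 place. Chromosome 11 had 845 of the 9673 places of the series (8.74%, 8.18 to 9.32), or 7.11 per Mb against 3.795 on the other autosomes. Its nearest neighbours in this order were chromosome 19 with 6.90 per Mb and then values down to 2.54 on chromosome 14. Counting against the IgG tags of each chromosome in place of its length left chromosome 11 at rank 1, with 22.8 places per 10000 IgG tags against 22.7 on chromosome 19 and a median of 13.2. Counting against protein-coding gene names in the RefSeq table (1609 for chromosome 11) moved it to rank 5. It then had 52.5 places per 100 genes, the median of the others was 47.0, and chromosome 12 had most with 62.9. The position of chromosome 11 at the top therefore depended on whether length or gene number was the measure. Its lead over chromosome 19 by length or by IgG tags was small and was not tested.

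The antibody libraries were also enriched on chromosome 11 outside the sites. Chromosome 11 took 5.47% of Ldb1 tags, 5.65% of Tal1 tags and 5.54% of Gata1 tags, but 4.98% of IgG tags. At more than 1000 bp from every place, the chromosome had 424 Ldb1, 432 Tal1 and 438 Gata1 tags per Mb for every 1000000 tags of the library (RPM), the highest of the 19 autosomes in each library. IgG had 415 RPM per Mb there and ranked 2, after chromosome 2. Set against IgG away from places, Ldb1 stood at 1.02 (1.02 to 1.03), Tal1 at 1.04 (1.04 to 1.05) and Gata1 at 1.06 (1.05 to 1.06), against medians of 0.955, 0.935 and 0.974 on the others. The highest of the others were 1.008 (Ldb1, chromosome 19), 1.007 (Tal1, chromosome 17) and 1.051 (Gata1, chromosome 17). The Gata1 interval of chromosome 17 (1.046 to 1.057) overlapped that of chromosome 11. IgG tags were 36 bases long and antibody tags 25 bases, and the part of tag length or base composition in these small ratios was not tested.

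The sites were not spread evenly along the chromosome. Cut into 3 stretches of equal length, chromosome 11 had 132 places in the first (3.33 per Mb, 2.79 to 3.95), 315 in the middle one (7.95, 7.10 to 8.88) and 398 in the last (10.1, 9.09 to 11.1). IgG tags were nearly level over the same stretches, 125776, 120982 and 123300. All 3 antibodies rose in the same order: Ldb1 from 74 to 138 and 200 sites, Tal1 from 69 to 177 and 229, and Gata1 from 73 to 190 and 242. The last stretch thus held 3.02 times the places of the first. This ratio was larger on chromosome 15 (4.64), and on chromosome 14 the last stretch held 0.386 times the first, so an uneven spread was common among autosomes. The median tag number changed little between the stretches, from 14 to 14 and 16.5 for Ldb1, 12 to 11 and 13 for Tal1, and 17 to 15 and 17 for Gata1.

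In bins of 1 Mb, the places of chromosome 11 were spread over many bins rather than gathered in a few. Of its 119 bins with IgG tags, 25 (21.0%, 14.1 to 29.4) had no site of any antibody, against 39.2% (37.2 to 41.2) of the 2290 bins on the other autosomes. The median bin had 5 places (quartiles 1 and 12), against 1 (0 and 5) elsewhere. Bins with 10 or more places made up 33.6% of chromosome 11 and 12.01% of the others. Chromosome 19, the next in density, was close to chromosome 11 in this. Of its bins 20.3% were empty and 25.4% held 10 or more places, with a median of 3. The fullest bin of chromosome 11 had 29 places. Among the far more numerous bins of the other autosomes the fullest had 55, on chromosome 10 from 79000001 to 80000000. Taken singly, the other autosomes had fullest bins of 18 (chromosome 18) to 55 places. None of the 10 fullest autosomal bins lay on chromosome 11, but 3 of the fullest 20 and 10 of the fullest 100 did. Of all bins it had 119, beside 2290 on the others, a smaller share than of the fullest 20 or 100. The fullest 12 bins of chromosome 11 held 31.5% of its places, while the fullest 229 bins of the others pooled, the same share of bins, held 45.7%. Within single other autosomes, at about that share of bins, the value ranged from 37.7% (chromosome 2) to 53.1% (chromosome 8).

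**Figure D2:**
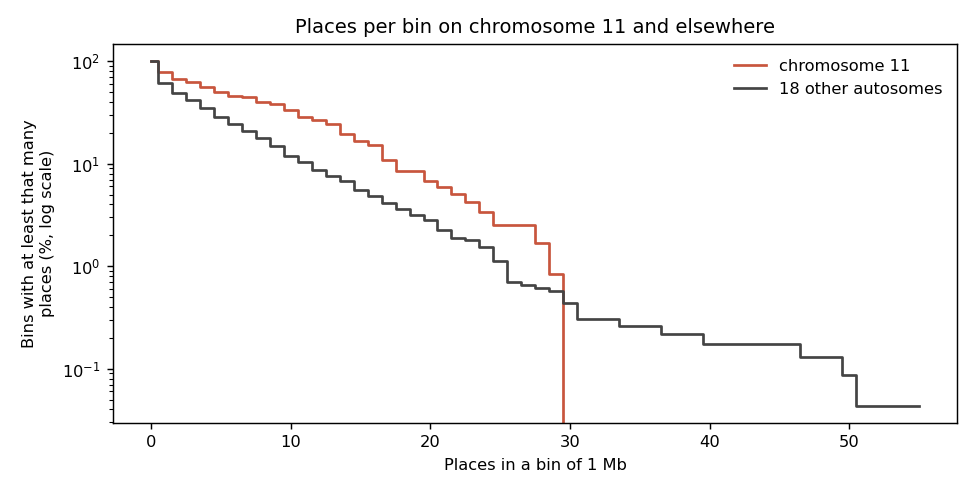
Share of 1 Mb bins (y axis, percent, log scale) that held at least the number of places on the x axis, for the 119 bins of chromosome 11 and the 2290 bins of the other autosomes. Chromosome 11 lies above the others up to 29 places, its fullest bin, while the others run on to 55.

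The numbers of sites of the 3 antibodies went together from bin to bin. Across the 119 bins Spearman's rho was 0.903 between Ldb1 and Tal1, 0.90 between Ldb1 and Gata1 and 0.919 between Tal1 and Gata1. The bins share the IgG control of the caller and the same sequence, and the number of places also followed IgG tags (rho 0.506), so these coefficients are a description only.

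The 5 fullest bins lay in 3 parts of the chromosome. Of these, 3 were adjacent, from 115000001 to 118000000, and held 29, 28 and 24 places. This run of 2.53% of the chromosome had 81 places (9.59%), built from 41 Ldb1, 51 Tal1 and 43 Gata1 sites, and 17 of them were called for all 3 antibodies. A bin moved by 0.5 Mb, from 115500001 to 116500000, caught 39 places, the highest count with either grid. The other 2 were the bin from 77000001 to 78000000, with 27 places, and the bin from 69000001 to 70000000, with 23. IgG stood at 425 to 454 RPM in these 5 bins, and the 3 antibodies at 586 to 772 RPM. Full bins were not richer in shared places: 24 of their 131 places were called for all 3 (18.3%, 12.1 to 26.0), against 23.0% (19.9 to 26.2) of the 714 places in other bins. Tag numbers were also alike, with medians of 14, 11 and 17 in the 5 bins against 15, 13 and 16.

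Several long stretches of chromosome 11 had no site at all. The longest ran between the places that end at 35681991 and begin at 43336231, 7.65 Mb, and took in 7 empty bins from 36000001 to 43000000. IgG tags were present there at 3062 per Mb, 0.993 times their level on chromosome 11 away from places. Those tags were 36 bases long, and whether the 25-base antibody tags could be aligned there equally well was not tested. The antibody libraries were lower, at 0.791 times that level for Ldb1, 0.762 for Tal1 and 0.794 for Gata1. Set against IgG, the antibody tags stood at 0.815 (0.799 to 0.831), 0.799 (0.782 to 0.815) and 0.844 (0.829 to 0.860). The second gap, of 4.30 Mb from 12106032 to 16403350, took in 3 empty bins from 13000001 to 16000000 and had ratios of 0.804, 0.740 and 0.774. The other runs of 2 or more empty bins were from 17000001 to 19000000, from 27000001 to 29000000 and from 91000001 to 93000000. They lay in gaps of 2.92, 2.64 and 3.02 Mb, in which the 3 ratios ranged from 0.750 to 0.965. Not every long gap was low: from 33964312 to 35677870 the ratios were 1.004 (Ldb1), 1.13 (Tal1) and 1.07 (Gata1), and from 80600752 to 82597710 they were 0.919, 1.14 and 1.03. Tal1 also stood at 1.02 from 6499552 to 8482750 and from 55315152 to 57418150. Gaps of 1 Mb or more covered 42.5% of chromosome 11, less than on any other autosome (44.6% to 69.1%). The longest gap of the others ranged from 5.02 to 15.5 Mb, so that of chromosome 11 was ordinary in length.

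Places also sat close together. The median gap between neighbouring places was 30.0 kb, and 539 of the 845 places (63.8%) had another place within 20 kb. On the other autosomes the median gap ranged from 25.2 to 57.8 kb and the share within 20 kb from 51.9% to 67.2%, so chromosome 11 was within their range in both.

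Co-occupancy on chromosome 11 was much like that of the other autosomes. A Tal1 site lay within 200 bp of 255 of the 412 Ldb1 sites (61.9%, 57.0 to 66.6), where the whole list had 60.9%. A Gata1 site lay that near 231 Ldb1 sites (56.1%, 51.1 to 60.9), against 53.6% in the whole list, and both partners were called at 191 (46.4%, 41.5 to 51.3), against 44%. Of the 475 Tal1 sites, 261 had Ldb1 (54.95%, 50.35 to 59.5; whole list 59.7%), 245 had Gata1 (51.6%, 47.0 to 56.2; 53.1%) and 194 had both (40.8%, 36.4 to 45.4; 43.3%). The Tal1 share with Ldb1 was thus the one pair whose interval lay below the value of the whole list. Of the 505 Gata1 sites, 226 had Ldb1 (44.8%, 40.4 to 49.2; whole list 48.4%), 235 had Tal1 (46.5%, 42.1 to 51.0; 48.6%) and 186 had both (36.8%, 32.6 to 41.2; 39.8%).

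Chromosome 11 took different ranks for the 3 proteins. By the share of sites with both partners it was the 5th of 19 autosomes for Ldb1, the 16th for Tal1 and the 17th for Gata1. Neither partner was called at 28.4% (24.1 to 33.0) of Ldb1, 34.3% (30.05 to 38.8) of Tal1 and 45.5% (41.1 to 50%) of Gata1 sites of chromosome 11. The other autosomes had 29.3%, 29.96% and 42.5%. The interval for Tal1 on chromosome 11 just missed the 29.96%, though it met that of the others (28.7 to 31.3). These shares compare single libraries, and their difference between chromosomes was not tested.

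Where 2 centres were within 200 bp they were usually far closer. The median distance on chromosome 11 was 30 bp for Ldb1 and Tal1 (quartiles 10 and 50), 30 bp for Ldb1 and Gata1 (10 and 80) and 40 bp for Tal1 and Gata1 (20 and 80). The other autosomes had the same 3 medians. Just beyond the limit, between 200 and 1000 bp, lay the nearest Tal1 site of 18 Ldb1 sites (4.37%), the nearest Gata1 site of 17 Ldb1 sites (4.13%) and the nearest Gata1 site of 51 Tal1 sites (10.7%). Elsewhere these shares were 3.598%, 4.93% and 8.68%.

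The 845 places fell into 7 classes by the antibodies called. All 3 were called at 188 places (22.2%, 19.5 to 25.2), against 23.6% of all places of the series. Ldb1 and Tal1 shared 64 more (7.57%, against 8.86% on the other autosomes), Ldb1 and Gata1 38 (4.50%, against 5.01%), and Tal1 and Gata1 46 (5.44%, against 4.91%). Places of 1 antibody alone numbered 230 for Gata1 (27.2%, 24.2 to 30.4), 162 for Tal1 (19.2%, 16.6 to 22.0) and 117 for Ldb1 (13.8%, 11.6 to 16.4). The corresponding shares on the other autosomes were 25.1%, 16.6% and 15.8%. In places of all 3 per Mb, chromosome 11 had 1.58 against 0.901 on the others, the highest of the 19.

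Site strength, the number of tags that the caller assigned to a site, was not unusual on chromosome 11. The median was 15 for Ldb1 (quartiles 11 and 28, range 9 to 180), 12 for Tal1 (9 and 22, range 8 to 156) and 16 for Gata1 (13 and 24, range 11 to 113). The other autosomes had medians of 15, 13 and 16. Sites above the 80th percentile of their list (31, 29 and 27 tags) made up 19.7% of the Ldb1 sites of chromosome 11 (81 sites, 15.9 to 23.8), 18.5% of Tal1 (88 sites, 15.1 to 22.3) and 18.2% of Gata1 (92 sites, 14.95 to 21.9). The whole lists had 19.4%, 19.9% and 19.1% above these values. The lowest tag number the caller allowed was that of 51 Ldb1 sites (12.4%), 75 Tal1 sites (15.8%) and 62 Gata1 sites (12.3%).

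Strong sites mostly had both partners called and weak ones mostly did not, on chromosome 11 as elsewhere. A partner with tags below the limits of the caller counts as absent here. Each list was cut into 5 parts at the same tag numbers for all chromosomes. In the weakest part, 9.47% (4.42 to 17.2) of Ldb1 sites on chromosome 11 had both partners, 8.82% (4.64 to 14.9) of Tal1 sites and 5.69% (2.32 to 11.4) of Gata1 sites. In the strongest part the shares were 93.8% (86.2 to 98.0), 89.8% (81.5 to 95.2) and 80.4% (70.85 to 88.0). The other autosomes had 92.9%, 91.7% and 86.2% in the strongest part, inside these intervals. In the weakest part of the Gata1 list they had 12.9% (11.1 to 14.8), above the interval for chromosome 11. Among the 92 strongest Gata1 sites of chromosome 11, 13.0% (6.93 to 21.7) had neither partner, against 7.88% (6.28 to 9.74) of such Gata1 sites elsewhere. On chromosome 11 the same share was 2.47% (0.300 to 8.64) of the 81 strongest Ldb1 sites, against 1.09% elsewhere, and 2.27% (0.276 to 7.97) of the 88 strongest Tal1 sites, against 0.719%.

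**Figure D3:**
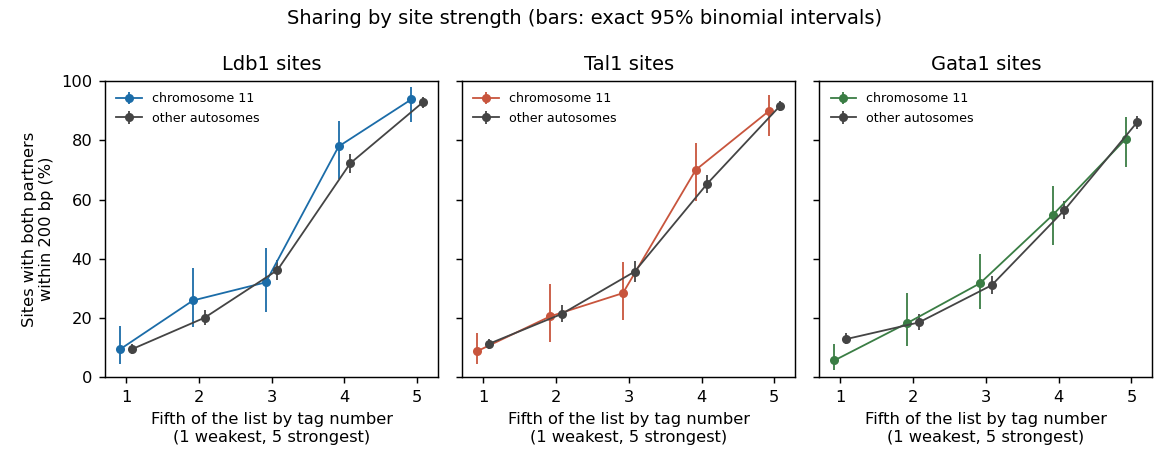
Share of sites with both other proteins called within 200 bp (y axis, percent) by part of the list (5 parts, weakest to strongest tag number, x axis), for Ldb1, Tal1 and Gata1 sites of chromosome 11 (colour) and of the other autosomes (dark), with exact 95% binomial intervals. All curves climb, from 5.69% to 9.47% in the weakest part on chromosome 11 to 80.4% to 93.8% in the strongest.

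The tag files give the signal behind these calls. Within 250 bp of its own sites on chromosome 11, Ldb1 had on average 7.34 RPM per site against 0.372 for IgG, a fold of 19.7 (18.6 to 20.9). Tal1 had 9.05 RPM against 0.444, a fold of 20.4 (19.35 to 21.4), and Gata1 had 4.14 against 0.375, a fold of 11.01 (10.4 to 11.6). The other autosomes had folds of 20.2, 23.9 and 11.8. The sites were picked for their tags, so these folds describe them. Tags within 250 bp of own sites made up 5.40% of the chromosome's Ldb1 tags, 6.95% of its Tal1 tags and 3.72% of its Gata1 tags, against 3.72%, 4.71% and 2.33% on the other autosomes. The windows covered 0.171% to 0.210% of chromosome 11 and 0.101% to 0.111% of the others.

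The first 20 kb of tagged sequence stood apart from the rest of the chromosome. From position 3000225 on, this stretch held 7 sites (3 Ldb1, 3 Tal1 and 1 Gata1) and tags far above the mean of the chromosome. Ldb1 was 20.2 times its mean density, Tal1 10.8 times, Gata1 4.32 times and IgG itself 6.55 times. Of the Ldb1 tags there 38.4% had a distinct position and strand, against 71.1% over the chromosome. Without the first 1 Mb, which had 21 sites in all and no place of all 3, the folds were 21.6 for Ldb1, 22.8 for Tal1 and 11.05 for Gata1. With the first 1 Mb of every other autosome left out too, these had 21.8, 24.4 and 11.8. Tal1 was then still lower on chromosome 11 (21.6 to 24.1), with an interval that met the lower bound of the others (23.98). Gata1 was lower in the same way (10.46 to 11.68), and its interval met that of the others (11.58 to 11.99).

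Tags of all 3 antibodies rose to a narrow peak at places of all 3. Within 250 bp of the centres of these 188 places, Ldb1 was 22.2 times as dense as in its own flanks 2 to 5 kb away (21.5 to 22.8), Tal1 25.9 times (25.1 to 26.6) and Gata1 12.6 times (12.25 to 13.0). IgG rose 1.39 times (1.26 to 1.52). The strands lay apart at these places: 70.4% of forward-strand Ldb1 tags lay upstream of the centre and 71.45% of reverse-strand tags downstream. For IgG these shares were 56.1% and 52.5%. The caller required 2 directional tags on each side of an antibody site. The strand layout was thus partly built into the choice of places, and IgG was not chosen in that way. At 27 of the 188 places there was no IgG tag. Tal1 exceeded Ldb1 in RPM at 123 of the 188 and Gata1 was below both at 156, differences between single libraries of unlike fragment length that were not tested.

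**Figure D4:**
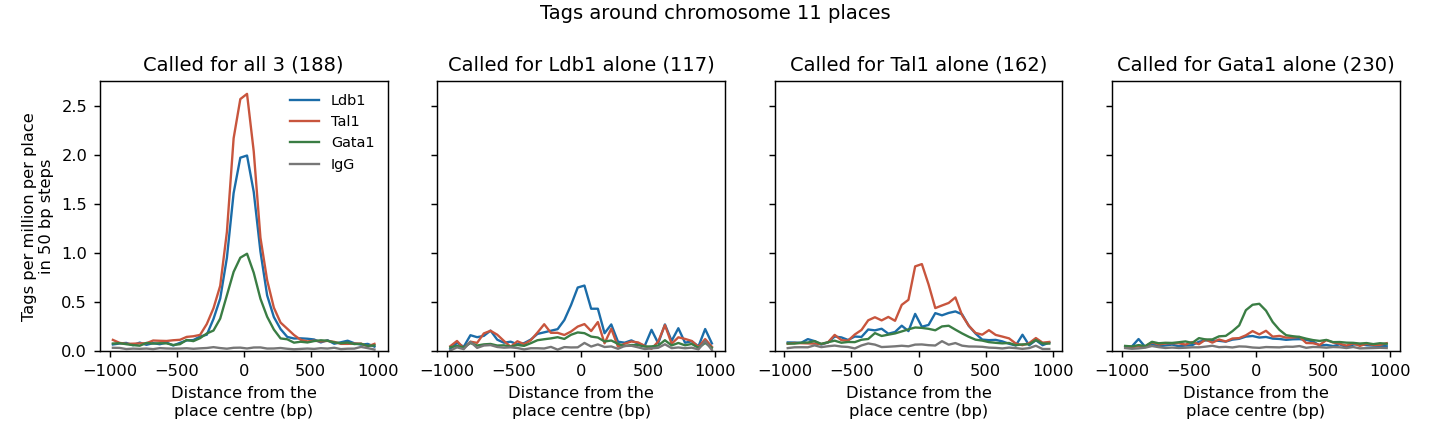
Mean tags per place for every 1000000 library tags in steps of 50 bp (y axis) against distance from the place centre (x axis, bp) for the 4 libraries, at chromosome 11 places called for all 3 antibodies or for 1 alone. All 3 antibodies peak at the 188 places of all 3, and at places of 1 antibody that antibody is highest at the centre with lower humps of the others.

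Places called for 1 antibody alone carried some tags of the others. At places of Ldb1 alone the median was 3.30 RPM for Ldb1, 1.56 for Tal1 and 1.14 for Gata1, with IgG at 0.269. At the 162 places of Tal1 alone it was 3.81 for Tal1, 1.41 for Ldb1 and 1.78 for Gata1, with IgG at 0.403. At the 230 places of Gata1 alone it was 2.79 for Gata1, 1.10 for Ldb1 and 1.39 for Tal1, with IgG at 0.403. IgG rose there over its flanks by 1.60 to 2.13 times, against 1.39 at places of all 3. Without the first 1 Mb the rise of IgG was 1.58 to 2.12 times. A site of another antibody lay within 1000 bp of 25.9% (19.4 to 33.4) of the places of Tal1 alone, against 11.1% (6.05 to 18.25) for Ldb1 alone and 11.7% (7.88 to 16.6) for Gata1 alone. Elsewhere the shares were 24.15%, 11.68% and 12.97% in the same order, inside these intervals.

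Places without a call can be compared with IgG more strictly by leaving out those with an own site within 1000 bp. Ldb1 tags then stood at 2.90 times IgG (2.72 to 3.09) over 395 places of chromosome 11, Tal1 at 3.91 times (3.64 to 4.20) over 344 and Gata1 at 3.05 times (2.86 to 3.27) over 287. Single places at 4-fold or more, with IgG set to at least 3 tags, numbered 70 for Ldb1 (17.7%, 14.1 to 21.85; 21.5% over all chromosomes), 99 for Tal1 (28.8%, 24.05 to 33.9; 29.9%) and 69 for Gata1 (24.0%, 19.2 to 29.4; 23.5%). The uncalled antibodies were thus above IgG as a group. Each place had been called for another antibody against this same IgG library, so these ratios are a description only. That most single places stayed under 4-fold cannot be read further, because the places were chosen for having no call of that antibody.

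The strongest place of the chromosome lay from 32145811 to 32145871. Its Ldb1 site had 180 tags, the highest tag number in the Ldb1 list of any autosome, and its Gata1 site had 113, the highest of chromosome 11. Within 250 bp there were 535 Ldb1, 480 Tal1, 217 Gata1 and 2 IgG tags, of which 211, 196, 140 and 1 had a distinct position and strand. The Ldb1 signal was thus 312 times IgG with duplicates counted, with an interval of 86.1 to 2586 because only 2 IgG tags stood against it. It was the 5th of the 2280 places of all 3 in the series by mean rank.

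This place lay in one of the densest short stretches of the chromosome. From 32145571 to 32165331, 19.8 kb, there were 14 sites in 5 places, 4 of them called for all 3. The stretch began with a Tal1 site of 10 tags at 32145571, and beyond the strongest place came places of all 3 from 32150771 to 32151191 (50 Ldb1, 52 Tal1 and 28 Gata1 tags in the caller's count), from 32156191 to 32156491 (33, 48 and 30) and from 32165251 to 32165331 (31, 19 and 20). The whole stretch had 146 Ldb1, 147 Tal1, 55.5 Gata1 and 7.66 IgG RPM. Over IgG this made 19.1-fold in Ldb1 tags (14.6 to 25.4), 19.2-fold in Tal1 tags (14.7 to 25.6) and 7.24-fold in Gata1 tags (5.49 to 9.72). Which gene these places belong to was not determined.

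The second place in order, from 102179851 to 102179911, had the strongest Tal1 site of the chromosome, with 156 tags. Tal1 stood there at 88.95 RPM against 35.96 for Ldb1, 22.1 for Gata1 and 0.538 for IgG. It was the first place of another dense stretch, of 14 sites in 6 places over 12.4 kb to 102192211, where Tal1 had 149 RPM, Ldb1 88.9, Gata1 44.7 and IgG 5.38. A second strong place of all 3 in this stretch, from 102191411 to 102191491, had 90 Ldb1 and 44 Gata1 tags in the caller's count, and 101 of Tal1.

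The stretch with the most sites on the chromosome was made of weaker ones. From 96757311 to 96772351, 15.0 kb, there were 15 sites, 5 of each antibody, in 6 places. Of these places, 4 were called for all 3, and the highest tag number was 38. The stretch had 42.9 Ldb1, 42.5 Tal1, 29.3 Gata1 and 6.18 IgG RPM, and its fold over IgG was 6.93 for Ldb1 (5.06 to 9.69). Number of sites and strength of sites thus did not go together among the 3 densest stretches.

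The remaining places among the 10 best of all 3 lay along most of the chromosome. In order of rank they ran from 95172491 to 95173011, from 116365531 to 116365591, from 84639671 to 84640051, from 31744011 to 31744071, from 96733751 to 96733831, then 102191411 (given above), from 29715411 to 29715491 and from 77882251 to 77882331. The place at 95172491 had no IgG tag. Its Tal1 signal was 58.8 RPM, its Ldb1 signal 38.8 and its Gata1 signal 22.35. The lower limits of the exact intervals over IgG were 77.6-fold (Ldb1), 118-fold (Tal1) and 44.6-fold (Gata1). Over the 10 places Ldb1 ranged from 23.7 to 84.0 RPM (median 31.95), Tal1 from 28.6 to 88.95 (46.6), Gata1 from 7.88 to 27.6 (15.2) and IgG from 0 to 0.941 (0.471). The 3 antibodies lay above IgG at each of the 10, which follows from their choice as top-ranked sites called against this IgG library. Tal1 exceeded Ldb1 at 9 of the 10. Repeated tags were common in the Ldb1 and Tal1 libraries there, with 51.8% and 47.4% of tags at a distinct position and strand, against 74.6% for Gata1.

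**Figure D5:**
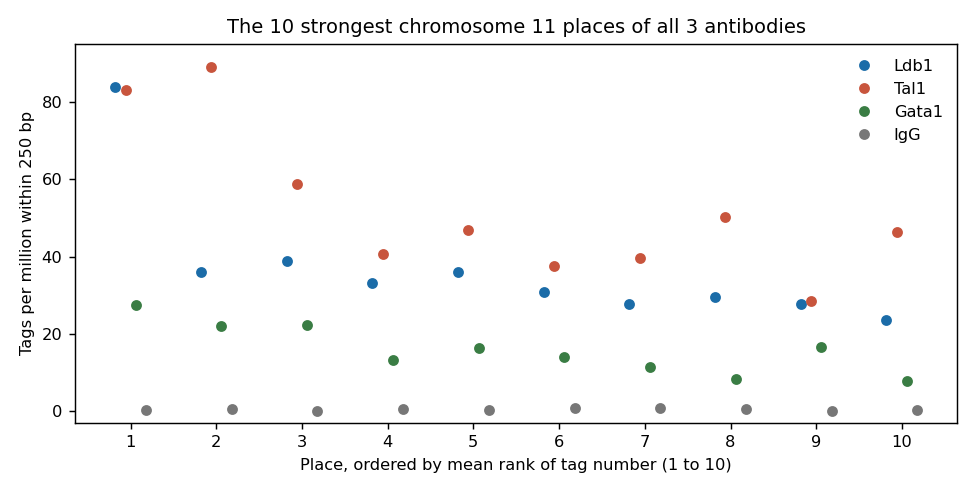
Tags for every 1000000 library tags within 250 bp (y axis) of Ldb1, Tal1, Gata1 and IgG at the 10 strongest chromosome 11 places of all 3 antibodies, ordered by their mean rank over the 3 lists (x axis). Gata1 (7.88 to 27.6) lies under Ldb1 and Tal1 at each place, and IgG lies under 1.

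The 1 Mb bins of these 10 places held from 4 places (around 29715411) to 28 (around 116365531). Only the bins around 29715411 and 84639671, with 4 and 9 places, held fewer than 10. The bin of the strongest place had 10 places, 5 of them called for all 3. Chromosome 11 had 1 of the 10 best places of all 3 in the series, 6 of the best 100 (6.0%) and 36 of the best 500 (7.20%), against 188 of all 2280 (8.25%).

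Among places of 1 antibody alone, the strongest of Ldb1 and Tal1 again included the start of the chromosome. For Ldb1 the first and the third by tag number (43 and 30) began at 3001011 and 3003211, where IgG had 31 and 69 tags and the Ldb1 fold over IgG was 4.60 (3.08 to 7.06) and 1.78 (1.299 to 2.44). The second, from 107015251 to 107015451, had 26.1 Ldb1 RPM against 12.3 of Tal1, 4.57 of Gata1 and 2.96 of IgG. Most antibody tags there were repeats: 47 of 166 Ldb1, 12 of 71 Tal1 and 6 of 36 Gata1 tags were distinct, and 14 of 22 for IgG. Its nearest Tal1 site was 186380 bp away.

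For Tal1 the first began at 3001731 with 82 IgG tags, and there Ldb1 (60.5 RPM) exceeded Tal1 (34.5). The second, from 87564971 to 87565011, had 12.3 Tal1 RPM, 10.2 times IgG (5.07 to 23.2), with Ldb1 at 3.61 and Gata1 at 2.29. The third, from 69574771 to 69574811, had 10.2 Tal1 RPM, 12.7 times IgG (5.49 to 35.95), while Ldb1 at 0.942 RPM was 1.17 times IgG (0.312 to 4.37). No Ldb1 site lay nearer to it than 87790 bp.

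The strongest places of Gata1 alone were clear of the chromosome's start. They ran from 78352331 to 78352611 (58 tags in the caller's count), from 87863811 to 87863911 (52) and from 86073751 to 86073971 (50). Gata1 stood there at 11.6, 10.9 and 9.53 RPM, or 21.5 (8.11 to 80.6), 7.39 (3.93 to 15.35) and 10.1 (4.68 to 26.0) times IgG. At the third of them Ldb1 had 1 tag and Tal1 5, against 7 of IgG, and the intervals of their ratios to IgG included 1. At the first 2, Tal1 was 5.48 (1.79 to 22.4) and 2.23 (1.01 to 5.18) times IgG, and Ldb1 was 3.21 (0.952 to 13.8) and 2.87 (1.38 to 6.40) times. By tag number they ranked 13, 17 and 21 among the Gata1 places of chromosome 11.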

How the data were processed

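The data are 4 ChIP-seq libraries of total mouse bone marrow, 1 per antibody and 1 of IgG. The authors deposited aligned tags on mm8, per the submitters' processing notes, with a score column that was not used. The libraries held 6368803 (Ldb1), 5767555 (Tal1), 7873298 (Gata1) and 7437674 (IgG) tags. Sites were called with SISSRs 1.4 per library against IgG, per the file headers, with 1 tag per position. A site needed 9 Ldb1, 8 Tal1 or 11 Gata1 tags. The deposited lists give per site a count of tags, a fold ratio over IgG and a p-value. The tag count ranked sites within a list and the other columns were not used. The aligner is not given in the sources used here.

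The tables were computed in Python 3.11.15 (numpy 2.4.6, pandas 2.3.3) with intervals from scipy 1.17.1 and figures from matplotlib 3.10.9. Site centres within 200 bp counted as shared. Signal was tags, duplicates included, within 250 bp of a centre per 1000000 library tags. A bin counted if it held IgG tags. A chromosome's length was the span of its tags. Intervals are exact Poisson, Clopper-Pearson or conditional binomial ones at 95%. No test of a difference was run, because there are no replicates. The code was tested on simulated data. Regions named are the 10 leading places of all 3 (mean of the 3 ranks by tag number), the 3 strongest of each antibody alone, the 5 fullest bins, runs of 2 or more empty bins, the 3 densest 20 kb stretches and the first 1 Mb. The gene list was only looked up by name. The chromosome, rules and lists were chosen with earlier results of these data known. Alternatives covered the sharing distance, bins, windows, duplicates, site strength and the first 1 Mb.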

Additional observations from a re-analysis of the deposited data

How the results depend on the processing

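Of 83 values under other settings, 46 moved by more than their counting interval or by more than 1.5 times, and 37 did not. The 2 settings that counted against gene names and ranked strong sites were chosen after seeing the data. Keeping sites at or above the median tag number lowered the density per Mb to 1.801 (Ldb1), 1.987 (Tal1) and 2.298 (Gata1). Leaving out sites had to lower these values. The shares by sharing distance and the empty bins by bin size likewise moved in a direction fixed by the setting. The rank in places per Mb stayed at 1, while the rank in Ldb1 sites per Mb went from 2 to 1. Counting places against gene names moved the rank in places to 5.

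Sharing followed the distance allowed. At 50 bp, 121 places had all 3 antibodies. Ldb1 sites then had Tal1 at 47.33% and Gata1 at 34.95%, Tal1 sites had Gata1 at 31.79%, and both partners were called for 25.24% of the Ldb1 list, 22.53% of the Tal1 list and 20.2% of the Gata1 list. At 100 bp, Gata1 was at 48.06% of Ldb1 and 42.74% of Tal1 sites, and both partners at 38.59%, 33.47% and 31.09%. At 500 bp, Gata1 was at 59.16% of Tal1 sites, and both partners at 47.58% of them. At 1000 bp these were 62.32% and 50.11%, with both partners at 51.7% of Ldb1 and 41.39% of Gata1 sites. Among sites at or above the median tag number, the Ldb1 shares were 76.17% with Tal1, 66.82% with Gata1 and 60.28% with both. The Tal1 shares were 62.29% with Gata1 and 55.08% with both, and Gata1 sites had both at 46.52%.

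Bins of 0.5 Mb were empty in 35.29% of cases and bins of 2 Mb in 6.667%, with up to 52 places in a bin of 2 Mb. The fold over IgG with 1 tag per position and strand was 17.29 (Ldb1), 18.38 (Tal1) and 10.36 (Gata1). Within 100 bp it was 31.48, 33.47 and 16.64, and within 500 bp 12.49, 13.61 and 7.026. Without the first 1 Mb the Ldb1 fold was 21.57 and the Tal1 fold 22.82. With 1 tag per position, chromosome 11 held 5.398% (Ldb1), 5.521% (Tal1), 5.512% (Gata1) and 4.959% (IgG) of each library. No paired analysis was possible because the groups hold a single library each, and none could be left out for the same reason.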
